A study of Mus musculus with 6 samples.

Results

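The histone cluster genes are the genes whose symbols begin with Hist1h, Hist2h, Hist3h or Hist4h, and 70 of the 41388 genes in the lung count table carry such a symbol. They were chosen by symbol alone, without regard to their level or to any difference between genotypes. Lungs of adult mice were collected at Zeitgeber time 7 (ZT7), 7 h after lights on in a 12 h light and 12 h dark cycle, and 1 RNA sequencing library was labelled for each of 6 animals. The KO animals (3 libraries, KO1 to KO3) came from the strain B6.129S7-Zpbp2 tmZuk/Mmjax, in which exons 1 to 3 and the upstream part of Zpbp2 are deleted on a C57BL/6J background, so the deletion is present in every tissue. The WT animals (3 libraries, WT1 to WT3) were C57BL/6J mice of the colony that also housed the KO strain. The study concerned the link between the Zpbp2 and Ormdl3 region and circadian timing, and the question addressed here is how the genes that supply histones appeared in these libraries and whether they differed between KO and WT.

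Histones are the proteins around which DNA is wrapped, with H2A, H2B, H3 and H4 forming the core of the nucleosome and H1 binding the linker DNA. Most of their genes lie in clusters, have no introns and are read mainly in S phase, when new DNA has to be packed. Their mRNAs end in a short stem-loop that is bound by the protein Slbp, in place of a poly(A) tail, although some of these genes also give longer polyadenylated transcripts. A second class, the replacement histones, lies outside the clusters, is made throughout the cell cycle and has ordinary poly(A) tails.

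The stem-loop is shown first because it defines the usual end of these mRNAs. The 16 letters searched, GGNNCTTNTNAGNGCC, were looked for on the sense strand within 100 bases after the stop codon of GENCODE M21 transcripts on GRCm38. They were found in 44 of the 52 cluster genes with enough annotated sequence after the stop codon (84.6%), against 3 of 21018 other protein-coding genes (0.0143%). One of those 3 was H2afx, the H2A variant that marks DNA breaks, and the others were H2bfm and Snrpa. The match began 21 to 58 bases after the stop codon, with a median of 31. The following 6 matches are from 3 of the 5 genes with the most counts, from an H3 gene and from 2 H4 genes, with the 16 letters in capitals and 5 bases on either side.
Hist1h1c, chr13:23739507-23739532, plus strand: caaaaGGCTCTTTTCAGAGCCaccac
Hist3h2a, chr11:58955167-58955192, plus strand: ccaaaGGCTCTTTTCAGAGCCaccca
Hist1h2be, chr13:23585526-23585551, minus strand: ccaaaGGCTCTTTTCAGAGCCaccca
Hist2h3c2, chr3:96238480-96238505, minus strand: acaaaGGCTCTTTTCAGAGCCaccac
Hist1h4i, chr13:22040961-22040986, minus strand: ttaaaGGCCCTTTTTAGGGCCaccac
Hist2h4, chr3:96262934-96262959, minus strand: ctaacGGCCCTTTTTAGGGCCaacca

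The stem differed by histone type. All 10 H4 genes with a match began it with GGCCC, while all 34 genes of the other types (4 H1, 11 H2A, 10 H2B and 9 H3) began it with GGCTC. There were 7 versions in all, and 26 genes shared the same 16 letters, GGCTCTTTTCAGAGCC. The capitals in Hist1h1c, a linker histone gene, were therefore the same as in the H2A, H2B and H3 genes shown.

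A poly(A) signal, the hexamer read by the general cleavage machinery, marks the other kind of end. AATAAA, or its variant ATTAAA, stood on the sense strand in the last 40 bases of an annotated transcript of 17 of the 66 protein-coding cluster genes (25.8%), against 17331 of 21962 other protein-coding genes (78.9%). Hist1h1c, Hist2h2be, Hist3h2a and Hist1h2be, all among the 5 genes with the most counts, were among the 17. The signals of the first 3 of these are printed with the hexamer in capitals.
Hist1h1c, chr13:23740335-23740364, plus strand: tgcttctAATAAAaagcgtttagttttcat
Hist2h2be, chr3:96223710-96223738, plus strand: tattattAATAAAgttaccgattagtttc
Hist3h2a, chr11:58956790-58956819, plus strand: tatgcccAATAAAataagagtacgtgtata
In Hist1h1c the annotated transcript ran on for 840 bases after the stem-loop letters, and in Hist3h2a for 1643 bases. The annotated transcript of Hist2h2be, a single exon of 2620 bases, held no match to the stem-loop letters in the window searched. Hist1h2bc, the fifth of these genes, has an annotated spliced transcript, and neither the stem-loop letters nor a poly(A) hexamer was found in the windows searched.

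The cluster genes took a small share of the reads. The 70 genes together had 8390, 8164 and 7498 counts in WT1, WT2 and WT3, and 8976, 7922 and 7543 counts in KO1, KO2 and KO3. As a share of all counts this was 0.0118% to 0.0125% in WT and 0.0126% to 0.0139% in KO, so every KO library lay above every WT library, and the summed level (115, 116 and 125 CPM in WT, 143, 128 and 129 CPM in KO, in the unit described below) was separated in the same way. This sum was not tested. Among single genes, all KO libraries lay above all WT libraries for 20.1% of all tested genes. By histone type only the summed H2B genes were separated in this way, while H1, H2A, H3 and H4 overlapped. Without Hist1h2bc the summed CPM of the other cluster genes overlapped between the genotypes. Between 38 and 44 of the 70 genes had at least 1 count in a library.

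Most of these reads came from a few genes. Over the 6 libraries there were 48493 histone counts, of which 2 genes, Hist1h1c and Hist1h2bc, held 73.3% and 5 genes held 94.4%. The other 65 genes shared 5.61%. The share of the same 5 genes lay between 93.8% and 95.2% in each library, so a few genes dominated the pool in WT and KO alike. The share of Hist1h1c and Hist1h2bc together was 72.1%, 69.7% and 72.6% in WT and 76.6%, 73.8% and 74.5% in KO, higher in every KO library. Levels are given below in CPM, the usual count scaled to a fixed library size, here after TMM adjustment of the library sizes.

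**Figure D1:**
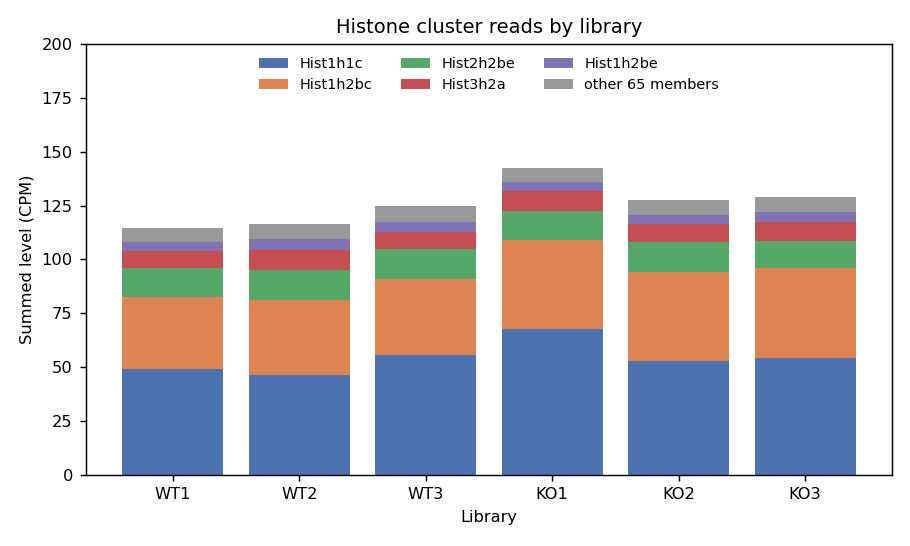
Summed level of the histone cluster genes in each library, in CPM, stacked by gene for the 5 genes with the most counts and the other 65. The bars reach 115, 116 and 125 CPM in WT1 to WT3 and 143, 128 and 129 CPM in KO1 to KO3, and Hist1h1c and Hist1h2bc fill most of each.

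At the other end, 12 genes had 0 counts in every library, which allows a level of up to 0.00775 CPM over all libraries (3 counts of the summed library sizes, for counting error only). A further 27 genes had at most 3 counts in every library, so that 39 of the 70 did not rise above a floor of 3 counts anywhere. Only 11 genes had 10 or more counts in all 6 libraries, and 5 had 100 or more. The table gives no level for an RNA that the library preparation did not capture, and whether the libraries were made from poly(A) RNA or from RNA depleted of ribosomal RNA is not given in the sources used here.

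Levels of other RNAs that lack a poly(A) tail were read in the same libraries. Rn7sk, the abundant nuclear 7SK RNA, stood at 0.396, 0.626 and 0.3 CPM in WT and 0.540, 0.532 and 0.804 CPM in KO. Snora73b, a nucleolar guide RNA, had the highest level of 21 such small RNAs in the table, up to 0.983 CPM. Rnu7, the U7 RNA that guides the cut after the histone stem-loop, was at 0 counts in all 6 libraries. Of 23 small RNAs listed, 7 were tested and edgeR called 0 between genotypes (2.28% of all genes), while 2 of the 7 had an unadjusted p of 0.05 or less (28.6%, against 27.3% of all genes). Scarna2, a guide RNA of Cajal bodies, was 1 of these 2, with 0.0409, 0 and 0.0833 CPM in WT and 0.429, 0.548 and 0.907 CPM in KO, a log2 fold change of 3.81 ± 0.85 and an adjusted p of 0.0725.

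Ribosomal RNA of mitochondria, which carries only short tails, was far higher, with mt-Rnr2 at 297 to 539 CPM and mt-Rnr1 at 160 to 270 CPM over the 6 libraries. Gm26917, a gene model known to collect reads of ribosomal RNA, stood at 1.72, 1.1 and 1.6 CPM in WT and 5.32, 20.6 and 18.3 CPM in KO. Every KO library was higher, and the log2 fold change was 3.08 ± 0.58 with an edgeR adjusted p of 0.0578. The part of such differences between libraries in the levels of the cluster genes was not tested.

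By histone type the pool was uneven. The 19 H2B genes held 45.3% of the histone counts, the 6 H1 genes 43.6%, the 20 H2A genes 7.03%, the 13 H4 genes 3.11% and the 12 H3 genes 0.973%. These are shares of counts over all libraries and not levels per length, and H1 exceeded H2B in WT3 (56.8 against 54.6 CPM) and in KO1 (68.3 against 59.9 CPM). By location, the 56 genes of the Hist1 cluster on chromosome 13 held 80.6%, the 10 genes of Hist2 on chromosome 3 held 12.2%, the 3 genes of Hist3 on chromosome 11 held 7.11% and the single Hist4 gene on chromosome 6 held 0.0928%. Many H2A, H3 and H4 genes also have near-identical copies, which bears on these shares as described below.

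Most histone counts lay in genes annotated well beyond the stem-loop. The 22 genes with more than 100 annotated bases after the stem-loop letters held 57.4% of the histone counts, and 13 of them had enough counts to be tested. Hist1h1c alone had 20896 of the 27837 counts of this group, so that share rested mainly on 1 gene. The 22 genes with 0 to 100 such bases held 1.20%, and 1 of them, Hist1h4h, was tested. Reads were present in 17 of these 22 genes, and Hist2h3c1, with 1162 annotated bases after the stem-loop letters, had 0 counts. The remaining 26 genes, without a match in the window, held 41.4%, nearly all of it in Hist1h2bc and Hist2h2be. Counts per gene also grow with length, and the annotated lengths were themselves drawn from sequenced transcripts, so the parts of length, annotation and RNA level in this pattern cannot be told apart here.

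The 17 genes with a poly(A) signal at an annotated end held 67.4% of the histone counts and the 53 without held 32.6%. Hist1h1c alone had 20896 of the 32701 counts of the 17 genes. In the first group the summed level was 78.1, 78.3 and 86.3 CPM in WT and 98.0, 83.7 and 84.5 CPM in KO, and the groups overlapped. In the second it was 36.4, 37.9 and 38.6 CPM in WT and 44.6, 44.0 and 44.6 CPM in KO, and all KO libraries lay above all WT libraries. Most of the second sum was Hist1h2bc.

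Near-identical copies limit what the counts can show. For each gene, the share of its 100-base stretches that occur in no transcript of another gene was computed from GENCODE M21. A gene annotated over the same bases counted as another gene here. The 28 genes with a share under 50% held 1.07% of the histone counts, and 24 of them stayed at or under the floor. The 42 genes with a share of 50% or more held 98.9%, and 15 of them stayed at or under the floor. Of the 12 genes at 0 counts, 10 had a share of at most 23.8%, against 7 of the 58 detected genes with a share under 24%. How reads that match several places were treated is not given in the sources used here, and a low count of a copied gene is therefore uncertain.

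**Figure D2:**
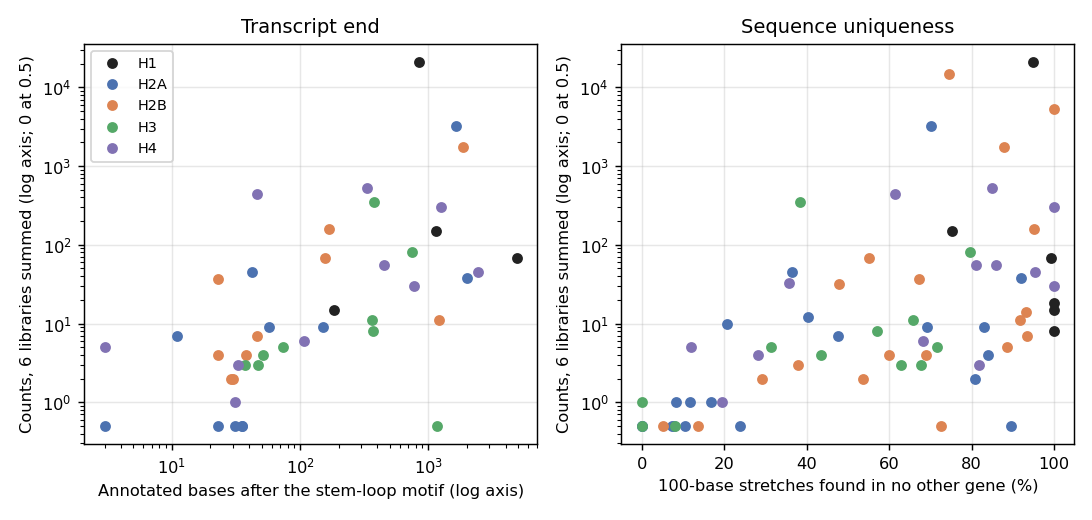
Counts summed over the 6 libraries (log axis, 0 drawn at 0.5) for each histone cluster gene, coloured by histone type, against the annotated bases after the stem-loop letters (left, 44 genes, log axis) and against the share of 100-base stretches found in no other gene (right, 70 genes). Genes with over 100 bases after the stem-loop reach 20896 counts, while the 22 genes with fewer hold 580 counts together.

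In the Hist2 cluster low shares also arose from overlapping annotation. Hist2h2aa1, Hist2h2aa2, Hist2h3c1 and Hist2h3b had no 100-base stretch of their own, and together they had 1 count in all 6 libraries. Each lies wholly within exons of another annotated gene, named Gm20632, Gm20633, Gm20634 or Gm20628. Their shares of 0 followed from that overlap and do not show whether copies exist elsewhere. Per library, Gm20632 had 92 to 133 counts, Gm20633 had 77 to 183, Gm20634 had 8 to 31 and Gm20628 had 1 to 5. Whether those reads fell in the exon bases shared with the histone genes cannot be read from counts per gene. Hist2h3c2, another H3 gene of the same cluster, had 43 to 68 counts per library with a unique share of 38.4%.

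In the opposite case the sequence was unique and the reads were still missing. Hist1h2aa and Hist1h2ba, the H2A and H2B genes known from testis, had 0 counts in every library although 89.7% and 72.6% of their 100-base stretches were unique. Hist1h1t, the H1 gene of developing sperm, had 15 counts in all libraries together. The summed level of 7 male germ cell markers was 0.508 to 1.5 CPM.

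The H2A and H2B genes are mostly arranged head to head, so that 1 stretch of DNA lies upstream of both. The annotation held 14 such pairs, with 172 to 305 bases between the annotated starts, and these pairs were looked at after the levels of their members were known. In 8 of the 14 pairs both genes had at most 20 counts over the 6 libraries. In 3 pairs 1 partner had over 100 counts, and in each of these the other had 38 or fewer.

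Hist1h2bc stood at 32.3 CPM per kb of annotated exon and its partner Hist1h2ac at 0.04 CPM per kb, a ratio of 807 between the levels per length. For Hist2h2be and Hist2h2ac the levels per length were 5.18 and 0.0456 CPM per kb, a ratio of 114. For Hist3h2a and the pseudogene Hist3h2bb-ps they were 3.94 and 0.0828 CPM per kb, a ratio of 47.6. The abundant partner was the H2B gene in the first 2 pairs and the H2A gene in the last. The annotated length of Hist1h2ac is 2482 bases, most of it after the stem-loop letters, and Hist3h2a shares 708 exon bases on the same strand with Trim17, which had 71 to 95 counts per library. Reads of Hist3h2a and Trim17 in that stretch could not be told apart.

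**Figure D3:**
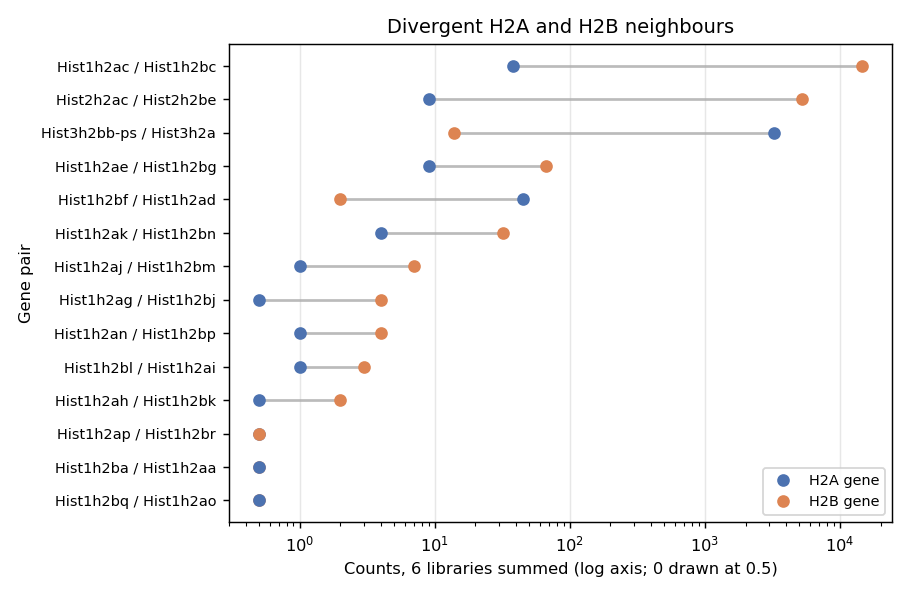
Counts summed over the 6 libraries (log axis, 0 drawn at 0.5) for the H2A and the H2B gene of each of the 14 head-to-head pairs, with a line joining the partners. The top 3 pairs have 1 abundant partner each, with 14633, 5234 and 3271 counts, beside partners with 38, 9 and 14.

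The DNA between the partners of these 3 pairs is shown because it lies upstream of a gene with many counts and a gene with few. The RefSeq promoter table for GRCm38.p6 (250 bases before each gene start) matched 60 of the 70 genes. The sequences below were read from the entries of Hist1h2ac, Hist2h2ac and Hist3h2a, on the strand of that gene, and kept only where they lie between the annotated GENCODE starts. Capitals mark CCAAT (the box bound by NF-Y), TATAAA (bound by the TATA-binding protein) and ATTTGCAT (the octamer bound by Oct-1), on either strand, and no 2 of them overlap.
Hist1h2ac to Hist1h2bc, chr13:23683960-23684198, minus strand: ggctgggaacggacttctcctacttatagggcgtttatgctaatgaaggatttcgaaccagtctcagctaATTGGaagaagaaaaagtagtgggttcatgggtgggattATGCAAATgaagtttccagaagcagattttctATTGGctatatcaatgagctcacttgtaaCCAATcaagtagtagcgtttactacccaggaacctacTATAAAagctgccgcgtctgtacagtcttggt
Hist2h2ac to Hist2h2be, chr3:96220881-96221118, minus strand: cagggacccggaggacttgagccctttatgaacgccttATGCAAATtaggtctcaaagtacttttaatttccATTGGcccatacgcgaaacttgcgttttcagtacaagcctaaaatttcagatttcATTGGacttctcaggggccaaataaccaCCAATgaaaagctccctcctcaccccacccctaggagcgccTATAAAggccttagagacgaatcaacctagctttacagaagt
Hist3h2bb-ps to Hist3h2a, chr11:58954513-58954684, plus strand: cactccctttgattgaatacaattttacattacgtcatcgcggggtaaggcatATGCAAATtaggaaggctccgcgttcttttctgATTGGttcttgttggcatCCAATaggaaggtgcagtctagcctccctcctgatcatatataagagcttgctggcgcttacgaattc

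Each of these 3 stretches held 1 octamer and 2 or 3 CCAAT boxes, and the first 2 held 1 TATAAA, which stood near the start of the H2A gene. Among the stretches of all 14 pairs, CCAAT was present in 14, TATAAA in 7 and the octamer in 7. Pairs with few reads thus also carried these letters, and the pair Hist1h2ba and Hist1h2aa, at 0 counts, was one of the 7 with an octamer.

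The 60 promoters matched did not include those of Hist1h2bc and Hist2h2be. Over the 60 promoters of the cluster genes, CCAAT was found in 49 (81.7%, against 33.8% of all 32851 promoters in the table), TATAAA in 29 (48.3%, against 12.4%) and ATTTGCAT in 13 (21.7%, against 1.60%). The octamer was found in 7 of 16 H2A and 6 of 16 H2B promoters and in none of the 6 H1, 10 H3 and 12 H4 promoters searched. CCAAT was found in all 6 H1, all 16 H2A and all 16 H2B promoters, but in 3 of 12 H4 promoters (25.0%). These are matches of letters in a fixed window and were not tested against the levels.

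For the comparison of KO with WT, KO2 and KO3 were summed to 1 sample, because their counts differed from each other by little more than counting error. The ratio of their variance to counting variance was 1.71 to 1.94 for genes with 20 to 20000 counts in the pair and 3.33 above that. For the other pairs of a genotype it rose with the count, from between 1.86 and 3.79 at 20 to 200 counts to between 36.0 and 156 above 20000, so the pairs differ mainly at high counts. Total counts ranged from 59134950 to 71354388 per library. The targeted gene Zpbp2 had 20, 15 and 7 counts in WT1 to WT3 and 1, 0 and 0 counts in KO1 to KO3. The 4 markers of alveolar type 2 cells, which make surfactant, summed to 18300 to 19200 CPM in WT and 26800 to 28500 CPM in KO, and 6 squamous epithelium markers summed to 4280 CPM in WT3 and 8040 CPM in KO1 against at most 10.9 CPM elsewhere. KO2 and KO3 were the libraries richest in the 7 erythroid markers of the table, with sums of 19000 and 19700 CPM against 2400 to 5520 CPM elsewhere, while 5 adipocyte markers stood at 407 to 664 CPM in WT and 50.8 to 127 CPM in KO. Cardiomyocyte markers (1870 to 5380 CPM in WT, 823 to 1000 CPM in KO) and B cell markers (187 to 212 CPM in WT, 163 to 172 CPM in KO) were also lower in every KO library. The part of these cells in the levels below was not tested. In bulk RNA, fewer cells of a type and less RNA per cell cannot be told apart.

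None of the cluster genes passed the test between KO and WT. Of the 70 genes, 17 had enough counts to be tested, and these 17 held 99.1% of the histone counts. edgeR's quasi-likelihood test with Benjamini-Hochberg adjustment over 18660 genes called 0 of the 17 with an adjusted p up to 0.05, against 2.28% of all tested genes (1.38% higher and 0.906% lower in KO). The unadjusted p was 0.05 or less for 2 of the 17, Hist1h2bc and Hist1h4i (11.8%, against 27.3% of all tested genes). DESeq2 called 1, Hist1h2bc, against 21.0% of all genes. The log2 fold change was above 0 for 8 genes and below 0 for 9, with a median of -0.03 beside a median of 0.02 over all tested genes. Its sign turned under at least 1 of the alternatives in which the gene was tested for Hist1h1d, Hist1h2bg, Hist1h3d, Hist1h4h, Hist2h3c2, Hist3h2a and Hist4h4.

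The CPM values of all KO libraries lay on 1 side of all WT libraries for 4 of the 17 genes (23.5%), against 40.8% of all tested genes. Hist1h2bc, Hist1h4i and Hist1h4c were higher in every KO library (all tested genes 20.1%), and Hist1h4j was lower in every KO library (all tested genes 20.7%). For the other 13 genes the groups overlapped.

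**Figure D4:**
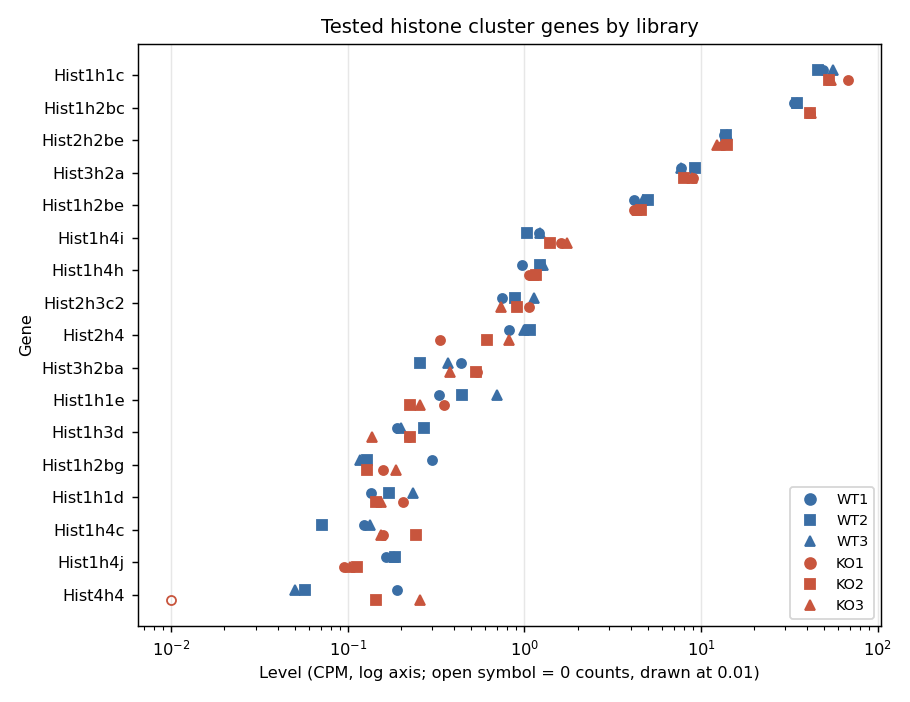
Level in CPM (log axis) of the 17 tested histone cluster genes in each library, with blue symbols for WT and red symbols for KO and 1 symbol shape per replicate number, the open symbol standing for 0 counts. Hist1h2bc shows 3 WT values of 33.6 to 35.1 CPM below 3 KO values of 41.2 to 41.9 CPM, while WT and KO symbols mix for most other genes.

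The linker histones come first. Hist1h1c (chr13:23738808-23740367, plus strand) encodes a widely made H1 subtype and had the most counts of any cluster gene. Its level was 49.0, 46.2 and 55.7 CPM in WT1, WT2 and WT3, and 67.7, 53.0 and 54.3 CPM in KO1, KO2 and KO3. WT3 lay above KO2 and KO3, so the groups overlapped. The mean was 50.3 ± 4.89 CPM in WT (SD, n = 3) and 60.7 ± 9.93 CPM in KO (SD, n = 2), and the log2 fold change was 0.27 ± 0.13 (SE, edgeR adjusted p of 0.24). WT3 and KO1, the highest libraries of their genotypes for this gene, were the 2 libraries with squamous markers, and the part of those cells in its level was not tested. Without KO1 the log2 fold change was 0.09, without WT3 it was 0.35, without KO2 and KO3 it was 0.43, and without both WT3 and KO1 it was 0.17 (an alternative chosen after the data were seen). An offset for gene length and GC content gave 0.07, and 0.01 together with a replicate block.

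Hist1h1e, another H1 subtype gene, stood at 0.328, 0.441 and 0.700 CPM in WT and 0.349, 0.226 and 0.257 CPM in KO. KO1 lay above WT1. The log2 fold change was -0.73 ± 0.41 with an edgeR adjusted p of 0.321, and it ranged from -1.02 without KO1 to -0.40 without WT3. In the annotation, 496 exon bases of Hist1h1e are shared with an annotated transcript of Hist1h2be on the same strand. Hist1h1d had 9 to 14 counts per library and a log2 fold change of -0.03, which ranged from -0.26 to 0.20 over the alternatives. Hist1h1b, whose product is tied to dividing cells, had 18 counts in all and was not tested.

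Among the H2A genes only Hist3h2a (chr11:58954685-58956830, plus strand) was tested. Its level was 7.67, 9.31 and 7.70 CPM in WT and 9.07, 8.04 and 8.95 CPM in KO. The highest library was WT2, and the groups overlapped. edgeR gave a log2 fold change of 0.10 ± 0.13 with an adjusted p of 0.669. Hist1h2ad had 45 counts and Hist2h2ab 12 counts in all libraries, and 15 of the 20 H2A genes stayed at or under the floor.

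The H2B genes gave the result nearest to the threshold. Hist1h2bc (chr13:23684199-23692908, plus strand) stood at 33.6, 34.9 and 35.1 CPM in WT1 to WT3 and at 41.5, 41.2 and 41.9 CPM in KO1 to KO3. Every KO library was higher than every WT library, and the distance between the groups was larger than the spread within either. The mean was 34.5 ± 0.806 CPM in WT (SD, n = 3) and 41.5 ± 0.0306 CPM in KO (SD, n = 2). With a log2 fold change of 0.27 ± 0.05 its adjusted p in edgeR was 0.0523, which narrowly missed 0.05.

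The call for Hist1h2bc turned on the settings. It passed with KO2 and KO3 as separate samples (edgeR adjusted p of 0.0103, 18.9% of all genes called), with a filter of at least 10 counts in every sample, KO2 and KO3 being summed (0.0456, 5.30% called) and with DESeq2 (2.39e-05). Over 17 alternatives the adjusted p ranged from 2.39e-05 to 0.212 and the log2 fold change from 0.12 to 0.28. The value of 0.13, with an adjusted p of 0.193, came from the fit with an offset for gene length and GC content, which called 4 of 18516 genes in all. Alveolar type 2, alveolar type 1, club cell and T cell markers were also higher in every KO library (type 1 markers 3050 to 3140 CPM in WT and 4110 to 4310 CPM in KO, T cell markers 14.5 to 19.5 CPM in WT and 21.0 to 23.7 CPM in KO), and their part in this difference was not tested. Leaving out WT3 and KO1 left the log2 fold change at 0.28, with an adjusted p of 0.0654.

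Hist2h2be (chr3:96221119-96223738, plus strand), the second H2B gene by level, showed no such separation. It stood at 13.5, 13.9 and 14.0 CPM in WT and 13.3, 14.0 and 12.4 CPM in KO. KO2 equalled the highest WT library to 3 digits, and KO3 was the lowest. edgeR gave a log2 fold change of -0.05 ± 0.07 with an adjusted p of 0.673.

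Hist1h2be stood at 4.16, 5.04 and 4.68 CPM in WT and 4.15, 4.56 and 4.33 CPM in KO, with overlapping groups and a log2 fold change of -0.10 ± 0.14. Hist3h2ba, the H2B gene of the Hist3 cluster, had 0.437, 0.256 and 0.367 CPM in WT and 0.540, 0.532 and 0.377 CPM in KO. KO3 fell between the WT libraries, and the log2 fold change was 0.49 ± 0.30 (edgeR adjusted p of 0.356), with a range of 0.24 to 0.68 over the alternatives. Hist1h2bg had 7 to 22 counts per library and a log2 fold change of -0.21 ± 0.52. Summed over all 19 H2B genes the level was 52.2, 54.5 and 54.6 CPM in WT and 59.9, 60.7 and 59.6 CPM in KO, a separation that Hist1h2bc carried.

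Of the H3 genes, 2 were tested. Hist2h3c2 stood at 0.751, 0.883 and 1.13 CPM in WT and 1.06, 0.902 and 0.736 CPM in KO, so WT3 was the highest and KO3 the lowest library. Its log2 fold change was 0.03 ± 0.25. Hist1h3d stood at 0.191, 0.271 and 0.200 CPM in WT and 0.222, 0.226 and 0.137 CPM in KO, with a log2 fold change of -0.13 ± 0.31. The groups overlapped for both genes. Hist1h3i, next among the H3 genes by level per length, had 5 counts in all.

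The H4 genes, most of which encode the same H4 protein, differed in direction, and none of them passed the test. Hist1h4i (chr13:22040636-22041362, minus strand) stood at 1.21, 1.03 and 1.23 CPM in WT and 1.62, 1.40 and 1.75 CPM in KO. Every KO library was higher. The log2 fold change was 0.46 ± 0.17, with an edgeR adjusted p of 0.163, with a range of 0.27 to 0.54 over the alternatives. Hist1h4c, with 5 to 15 counts per library, had 0.123, 0.0712 and 0.133 CPM in WT and 0.159, 0.242 and 0.154 CPM in KO, and a log2 fold change of 0.73 ± 0.41 (adjusted p of 0.315).

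Hist2h4 (chr3:96261682-96263311, minus strand) stood at 0.819, 1.08 and 1 CPM in WT and 0.334, 0.612 and 0.822 CPM in KO. KO3 reached the level of WT1, and KO1 was the lowest. The log2 fold change was -0.86 ± 0.38, with an edgeR adjusted p of 0.220. It was -0.44 without KO1 and -1.53 without KO2 and KO3 (adjusted p of 0.0936). Hist1h4j had 11 to 13 counts in the WT libraries and 6 or 7 in the KO libraries, that is 0.164, 0.185 and 0.183 CPM against 0.0953, 0.113 and 0.103 CPM. These groups did not overlap, and the log2 fold change was -0.78 ± 0.32 (adjusted p of 0.201).

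Hist1h4h had the highest level per length of the H4 genes, 2.42 CPM per kb against 1.83 CPM per kb for Hist1h4i. It stood at 0.969, 1.22 and 1.28 CPM in WT and 1.06, 1.16 and 1.13 CPM in KO, with the KO values inside the WT range and a log2 fold change of -0.06 ± 0.20. Hist4h4, the only cluster gene on chromosome 6, had 14, 4 and 3 counts in WT and 0, 9 and 15 counts in KO. Its spread within each genotype was wider than any difference between them, and the log2 fold change was 0.14 ± 1.21. Summed over the 13 H4 genes the level was 3.67, 3.86 and 4.15 CPM in WT and 3.45, 3.88 and 4.43 CPM in KO, with the lowest and the highest library both in KO.

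The remaining 53 cluster genes were not tested, and 14 of them had more than 3 counts in some library. The untested genes held 0.872% of the histone counts, so no direction was read from them. The lowest total among tested genes, 45 counts in Hist4h4, was also that of the untested Hist1h2ad, since the filter looks at counts within libraries and not at the total.

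The replacement histone genes outside the clusters were compared as the polyadenylated counterpart. Of 13 listed, 11 were tested, 10 had a log2 fold change above 0 and 1 below, and edgeR called 3 (27.3%, against 2.28% of all tested genes), all higher in KO (1.38% of all tested genes), with a median log2 fold change of 0.23. The unadjusted p in edgeR was 0.05 or less for 7 of the 11 (63.6%, against 27.3% of all tested genes). H2afj, an H2A variant with a distinct tail, rose from 32.7, 33.9 and 40 CPM in WT to 60.7, 59.3 and 56.3 CPM in KO, a log2 fold change of 0.74 ± 0.10 (adjusted p of 0.0446). H2afv, an H2A.Z gene, rose by 0.38 ± 0.05 (adjusted p of 0.0474), and H3f3b, a gene for the replacement H3, rose from 196, 186 and 181 CPM to 245, 245 and 244 CPM, by 0.39 ± 0.06 (adjusted p of 0.0496). For all 3 every KO library lay above every WT library, as for 20.1% of all tested genes.

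These 3 calls were close to the threshold. Over 17 alternatives the log2 fold change stayed between 0.56 and 0.84 for H2afj, between 0.23 and 0.41 for H2afv and between 0.33 and 0.42 for H3f3b. DESeq2 called 6 of the 11 (54.5%, against 21.0% of all genes). With scaling by library size alone edgeR called 1 of the 11 and 306 genes in all. It called 0 of the 11 without WT1, without WT2, without WT3 or without KO2 and KO3 together, but those fits called 0 genes in the whole table, and the fits without KO1 and with the length and GC offset, which also called 0 of the 11, called 17 and 4 genes in all. Such fits do not show whether these 3 calls are stable. The fit without KO2, which called 355 genes in all, called 1 of the 11. H2afx, the replacement gene that also held the stem-loop letters, stood at 10.7, 9.98 and 13.8 CPM in WT and 17.0, 14.4 and 15.3 CPM in KO, with a log2 fold change of 0.47 ± 0.16 and an adjusted p of 0.15. H3f3b alone, at 181 to 245 CPM, had more reads per library than all 70 cluster genes together, and a difference between cluster and replacement genes was not tested.

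**Figure D5:**
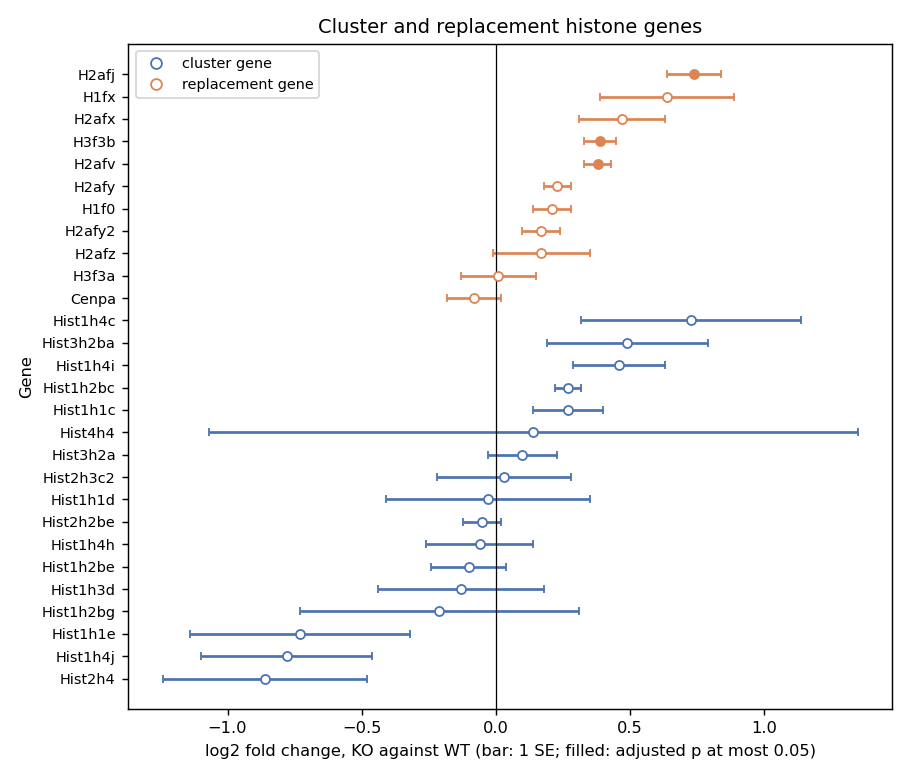
Log2 fold change of KO against WT with 1 SE for the 17 tested cluster genes (blue) and the 11 tested replacement genes (orange), filled where the adjusted p was at most 0.05. The filled points are H2afj, H2afv and H3f3b, and the cluster genes spread from -0.86 to 0.73 with none filled.

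Genes that supply and process histone mRNA and histone proteins showed no called difference in edgeR. All 41 listed genes were tested, 26 had a log2 fold change above 0 and 15 below, and the median was 0.06, while 10 had an unadjusted p of 0.05 or less (24.4%, against 27.3% of all genes) and DESeq2 called 8 (19.5%, against 21.0%). These shares are near those of all genes. Slbp, which binds the stem-loop, stood at 20.5, 22.3 and 20.8 CPM in WT and 22.1, 22.3 and 22.6 CPM in KO, with a log2 fold change of 0.08 ± 0.07 (adjusted p of 0.511). Npat, the activator of cluster gene transcription in S phase, stood at 21.8, 23.2 and 21.0 CPM in WT and 16.9, 17.5 and 18.7 CPM in KO, with a log2 fold change of -0.33 ± 0.08 (adjusted p of 0.0817). Zcchc11, an enzyme that adds uridines to RNA ends, had the smallest adjusted p of the list, 0.0542, with a log2 fold change of -0.32 ± 0.06. For Npat and Zcchc11 all KO libraries lay below all WT libraries, as for 20.7% of all tested genes.

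Genes of S phase and the cell cycle were read as the measure of dividing cells. All 40 listed genes were tested. Rounded to 2 digits, the log2 fold change was above 0 for 31 genes, below 0 for 8 and -0.00 for Mki67, with a median of 0.14. Of these genes edgeR called 0, while 5 had an unadjusted p of 0.05 or less (12.5%, against 27.3% of all genes) and DESeq2 called 2 (5%, against 21.0%). Their summed level was 446, 459 and 489 CPM in WT and 504, 497 and 493 CPM in KO. All KO libraries lay above all WT libraries in that sum, narrowly for KO3 against WT3, as for 20.1% of all tested genes. The part of dividing cells in the levels of the cluster genes was not tested.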

How the data were processed

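The table that the authors deposited holds raw counts of reads for each gene, not normalized. Per the submitters' processing notes, reads were handled with Trimmomatic 0.36, STAR 2.5.3a, Picard 2.9.0 and HTSeq 0.6.0 on mm10. RNA selection, strand use in counting and the treatment of multiply mapped reads are not given in the sources used here. Groups were taken from the labels.

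Genotypes were compared with edgeR 4.0.16 under R 4.3.3 (filterByExpr, TMM scaling, glmQLFit and glmQLFTest, two-sided, Benjamini-Hochberg adjustment over all tested genes, threshold 0.05). KO2 and KO3 were summed (3 WT against 2 KO samples), and the mean of their CPM is 1 replicate. CPM use TMM-scaled library sizes. DESeq2 1.42.0 was an alternative. The script was tested on simulated data. Positions, lengths and motifs were taken from GENCODE M21 (GRCm38), with 68 of 70 genes matched by identifier and 2 by symbol. Intervals and floors cover counting error only.

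Named genes were, per histone type, the 3 with the highest level per length, the 5 largest log2 fold changes in each direction, all Hist3 and Hist4 genes and the germ line genes, with pair partners and a few others added after their values were seen. Members and lists were chosen with earlier results of these data known. Alternatives covered the separate KO libraries, scaling, filtering, the test, leaving out libraries, a replicate block, and gene length and GC content.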

Additional observations from a re-analysis of the deposited data

How the results depend on the processing

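Of the cluster genes, edgeR called 1 with KO2 and KO3 separate (3402 genes called in all, against 426), 1 with at least 10 counts in every sample, KO2 and KO3 summed (909 in all) and DESeq2 called 1 (3919 in all), each time Hist1h2bc. The other alternatives called 0. The median log2 fold change of the cluster genes, -0.03, was 0.04 with no filter (58 genes in place of 17) and -0.09 with the replicate block and the length and GC offset together. Called replacement genes, 3 in the reported fit, were 0 to 1 without WT1, WT2, WT3, KO1, KO2 or KO2 and KO3 (3 without KO3 alone), in fits of which 4 called 0 genes in the whole table, 0 with the offset (4 genes in all), 0 with block and offset (15 in all), 1 with library size alone and 6 with DESeq2. Called supply genes, 0 in the reported fit, were 8 with separate KO libraries, 8 with DESeq2, and 1 each with the filter at 10 counts and with the replicate block. Called cell cycle genes, 0 in the reported fit, were 2 with separate KO libraries and 2 with DESeq2. The cause was not tested.

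Signs changed for genes near 0 or with few counts. Hist2h3c2 (0.03) was -0.03 with separate KO libraries, -0.02 with library size alone, -0.03 with the block, -0.24 with the offset, -0.30 with both, and -0.17 to 0.20 when 1 library was left out. Leaving out a library gave ranges of -0.44 to 0.37 for Hist1h2bg, -0.29 to 0.04 for Hist1h3d (0.01 without KO2 and KO3), -0.17 to 0.02 for Hist1h4h and -0.16 to 0.97 for Hist4h4, which was -0.11 without WT3. Hist4h4 was -5.79 without KO2 and KO3, where the lone KO sample had 0 counts. Hist1h4h was 0.06 and Hist3h2a -0.00 without WT3 and KO1, and Hist3h2a was -0.01 with block and offset.

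The replicate numbers did not pair the samples. Deviations from the genotype means correlated across genes at -0.48, 0.564 and -0.653 for numbers 1, 2 and 3. A replicate block gave 1157 called genes in all, against 3402 without it, 0 cluster genes and an adjusted p of 0.05, just over the threshold, for Hist1h2bc. Nothing in the labels says whether the numbers mark a shared day. With 39 of 70 genes at 3 counts or fewer, differences in most single cluster genes were not detectable in these counts.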
